A study of Homo sapiens with 3 samples.

Results

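The cells described here were 4636 droplet barcodes, chosen from 25463 kept cells of 3 single-cell RNA libraries because they carried little CHGA RNA and at least 4 of 7 named genes. CHGA encodes chromogranin A, a granule protein that marks endocrine cells, and a cell counted as CHGA-low when it had under 5 CHGA molecules per 10000. The 7 genes were CCNA1, SLN, NEFL, ADCY2, FBN1, NTRK2 and ZEB1, and each counted as present with at least 1 unique molecular identifier (UMI, a tag that marks 1 captured RNA molecule). A selected cell also had no UMI of TFAP2B, a transcription factor of surface ectoderm and neural crest. The KO library gave 1659 selected cells, the HET library 2007 and the WT library 970. The comparison throughout was with the 16912 other CHGA-low cells, 5743 in KO, 5539 in HET and 5630 in WT.

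The starting material was H1, a human embryonic stem cell line in wide use, which the study had taken through differentiation to beta cells of the pancreas. KO cells carried lesions in both PAX6 alleles (PAX6-/-), HET cells in 1 allele (PAX6+/-) and WT cells in none. PAX6 encodes a transcription factor that eye, brain and islet endocrine cells need. Each genotype was 1 library, so no difference between genotypes had a replicate check, p-values and standard errors are left out, and genotype and library cannot be told apart. How many edited clones stood behind each library is not given in the sources used here.

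The 7 genes belong to different programmes. NEFL encodes the light neurofilament chain of neurons, NTRK2 the receptor TrkB for brain-derived neurotrophic factor, and ADCY2 an adenylyl cyclase that makes cyclic AMP. FBN1 encodes fibrillin, the core of extracellular microfibrils, SLN encodes sarcolipin, a small inhibitor of the calcium pump of muscle, and CCNA1 encodes a cyclin best known from male germ cells. ZEB1 encodes a repressor that silences E-cadherin and other epithelial genes during epithelial-mesenchymal transition, in which epithelial cells loosen their junctions and take on mesenchymal genes. In GENCODE 29 on GRCh38 the longest of the 7 loci was ADCY2 (chromosome 5, 7396208 to 7830081, plus strand) and SLN lay on chromosome 11 (107707378 to 107719693, minus strand). ZEB1 lay on chromosome 10 (31318495 to 31529814, plus strand).

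The libraries held 9726 barcodes in KO, 9628 in HET and 9667 in WT, with 136834433 to 145948590 UMIs each. Of all barcodes, 99 sequences occurred in more than 1 library, and 33 selected barcodes were among them. A selected cell had a median of 17408 UMIs in KO, 16088 in HET and 17165.5 in WT, and another CHGA-low cell had 15098, 13314 and 14169.5. The doublet caller did not work here (5 barcodes called in KO, 0 in HET and 0 in WT), so doublets were kept. Among selected cells, 11.7% in KO, 10.3% in HET and 13.4% in WT were in the top 8% of doublet scores, against 6.11%, 6.12% and 5.17% of other CHGA-low cells. The part of doublets in the results was not tested beyond leaving those scores out.

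Since detection depends on depth, the selection was first described as a share. Selected cells were 22.4% of CHGA-low cells in KO (95% exact binomial interval 21.5% to 23.4%), 26.6% in HET (25.6% to 27.6%) and 14.7% in WT (13.9% to 15.6%). These intervals and all others here cover counting error only. Selected cells were thus more frequent in both edited libraries, and the HET library held the most. Of the selected cells 79.1% came from KO and HET, while these libraries held 69.4% of all CHGA-low cells.

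The share followed the depth of the cell. Among KO cells of 1000 to 5000 UMIs 2.22% were selected, and among those of 30000 to 40000 UMIs 44.9% were. The same bins gave 3.21% and 50.6% in HET and 2.12% and 44.4% in WT. In the deepest bin the interval of KO (39.1% to 50.8%) overlapped that of WT (38.3% to 50.6%). Thinning each CHGA-low cell at random to 5000 UMIs, which left out 135 cells in KO, 156 in HET and 189 in WT, reduced the shares to 4.86% in KO (4.37% to 5.38%), 8.53% in HET (7.90% to 9.18%) and 3.24% in WT (2.82% to 3.71%). HET remained the highest library after thinning, and the intervals of the 3 libraries did not overlap.

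The number of the 7 genes per cell formed 1 continuous distribution, with no gap at 4. In cells thinned to 5000 UMIs and without TFAP2B, 14.5% of KO cells had 3 of the genes and 3.92% had 4. In HET 20.1% had 3 and 7.45% had 4, and in WT 10.5% had 3 and 2.76% had 4. The commonest number was 1 gene in KO (37.1%) and WT (41.9%) and 2 genes in HET (34.2%). The selected cells were therefore the upper end of a range, and the values on both sides of the limit are given here with no test. Cells with 4 genes detected before thinning had 289 CPM of APOA1 in KO, 311 in HET and 507 in WT, and cells with 3 had 405, 518 and 731 (CPM, the usual scale of UMIs of a gene over all UMIs of the group). For NEFM the cells with 4 genes had 348, 777 and 698 CPM in KO, HET and WT, and the cells with 3 had 220.3, 626 and 632 CPM.

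**Figure D1:**
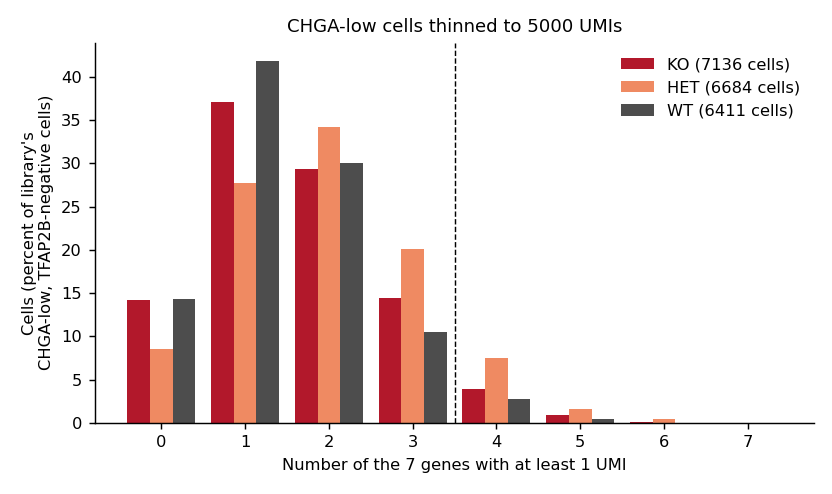
Number of the 7 genes with at least 1 UMI per CHGA-low, TFAP2B-negative cell after thinning to 5000 UMIs, as the percent of each library's cells (KO, HET and WT bars); the dashed line marks the limit of 4 genes. Each library falls off smoothly across the limit, and HET has the most cells above it (7.45% with 4 genes, against 2.76% in WT).

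The name given to these cells, after SLN, NEFL, NTRK2 and ZEB1, described them unevenly. NTRK2 was found in 98.7% of selected cells in KO, 99.5% in HET and 98.0% in WT, but also in 82.7%, 87.3% and 86.7% of the other CHGA-low cells. NEFL was found in 88.1%, 95.7% and 87.7% of selected cells. SLN was found in only 26.8% of selected cells in KO, 24.9% in HET and 20.8% in WT, and ZEB1 in 36.0%, 28.6% and 44.6%. The commonest combination was NEFL, ADCY2, FBN1 and NTRK2 in KO (14.3% of selected cells) and CCNA1, NEFL, FBN1 and NTRK2 in HET (21.4%) and WT (13.4%). Neither combination held SLN or ZEB1, and no combination made up most of the selected cells of a library.

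Detection outside the CHGA-low cells was read from endocrine cells, taken as kept cells with at least 20 CHGA UMIs per 10000 (932 in KO, 515 in HET, 1302 in WT). Endocrine cells have expression of their own, so their shares cannot separate it from free RNA in droplets, which was not tested. The median depths of the endocrine cells were 12861 UMIs in KO, 13291 in HET and 13452.5 in WT. At 5000 UMIs NTRK2 was found in 69.9% of CHGA-low cells in KO, 78.7% in HET and 73.5% in WT, against 15.7%, 23.2% and 18.6% of endocrine cells. SLN was found in 4.17%, 4.49% and 2.81% of CHGA-low cells, against 0.466%, 1.20% and 0.654% of endocrine cells. FBN1 was found in 22.9%, 18.9% and 9.55%, against 10.1%, 11.6% and 8.42%. These genes were above the endocrine share in every library, though FBN1 in WT only by a little.

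ADCY2 and NEFL were also above the endocrine share in every library, ADCY2 with 11.1% of CHGA-low cells against 7.93% of endocrine cells in KO, 10.6% against 7.19% in HET and 8.47% against 7.52% in WT. ZEB1 was found in 4.97% of CHGA-low cells in KO, 4.18% in HET and 5.85% in WT, and in 5.83%, 4.79% and 6.13% of endocrine cells, so its share was no higher than there. CCNA1 was found in 12.0% of CHGA-low cells in KO and 21.8% of KO endocrine cells, but in 21.4% and 10.6% in HET and 11.8% and 9.32% in WT. NEFL was found in 33.3% against 31.7% in KO, 50.6% against 28.7% in HET and 34.9% against 33.3% in WT. By level NEFL was lower in CHGA-low than in endocrine cells in KO (139 against 229 CPM) and WT (172 against 267). In HET its level was higher (312 against 200 CPM). CCNA1 in WT was also lower by level (45.7 against 57.9 CPM).

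Over all CHGA-low cells the levels behind the selection differed by library. FBN1 had 62.7 CPM in KO, 51.0 in HET and 23.1 in WT. CCNA1 had 41.2 CPM in KO, 95.8 in HET and 45.7 in WT. NEFL had 139 CPM in KO, 312 in HET and 172 in WT. FBN1 was thus high in both edited libraries, while CCNA1 and NEFL were high in HET alone. SLN had 12.3 CPM in KO, 16.4 in HET and 8.87 in WT, and so was highest in HET and lowest in WT. ADCY2 (24.03, 24.99 and 19.8 CPM in KO, HET and WT), NTRK2 (425, 553 and 481) and ZEB1 (12.2, 10.3 and 13.5) were closer between libraries.

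To describe how strongly the genes went together in the same cells, each gene was read in CHGA-low cells chosen by at least 4 of the other 6. SLN had 26.6 CPM in cells so chosen in KO and 8.17 CPM in the remaining CHGA-low cells, a ratio of 3.25 (95% interval 2.93 to 3.60). In HET it had 35.6 CPM in chosen cells against 8.89 (ratio 3.997, 3.64 to 4.39), and in WT 21.3 CPM against 6.41 (ratio 3.32, 2.90 to 3.797). SLN showed the highest ratio of the 7 genes in all 3 libraries.

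ZEB1 and CCNA1 came next in KO and HET, and in WT ADCY2 (ratio 1.98) stood between them. ZEB1 had 22.4 CPM in chosen KO cells against 9.50 CPM (ratio 2.36), 19.9 against 6.63 in HET (interval 2.67 to 3.37) and 26.5 against 11.4 in WT (2.31). CCNA1 had 78.9 CPM against 32.8 in KO (2.41), 179 against 76.3 in HET (2.35) and 80.2 against 41.4 in WT (1.94). The remaining genes had ratios of 1.85 to 1.98 for ADCY2, 1.48 to 1.95 for NEFL, 1.45 to 1.84 for FBN1 and 1.39 to 1.56 for NTRK2. Every interval lay above 1. Each gene was thus higher in cells that carried the others, in every library. The 7 genes had been picked for going together in these data, so the ratios are a description and no test.

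When the UMIs of each cell were divided at random into 2 sets and cells were chosen on the first alone, 49.4% of chosen cells in KO (45.8% to 52.9%), 51.9% in HET and 39.9% in WT also had at least 4 of the genes in the second set. Of the remaining CHGA-low cells 5.85% in KO, 8.48% in HET and 4.31% in WT did. Membership was thus not stable for a single cell at that depth, though it was several times more frequent in chosen cells. Both sets were read with the same genes, which had been picked for going together, and the share selected rose with depth. The contrast between chosen and remaining cells is therefore a description, and the part of depth in it was not tested.

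**Figure D2:**
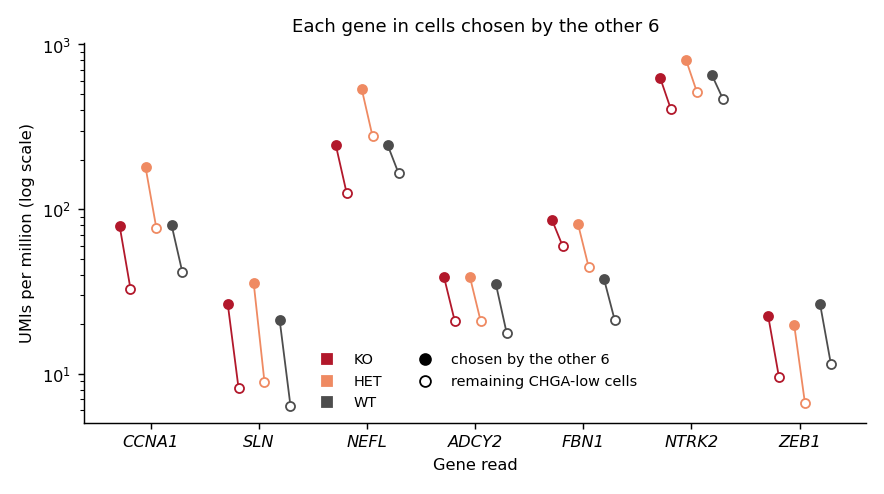
Level of each gene (CPM, log scale) in CHGA-low cells with at least 4 of the other 6 genes (filled) and in the remaining CHGA-low cells (open), for KO, HET and WT. Every filled point lies above its open partner, from 1.39-fold for NTRK2 in WT to 3.997-fold for SLN in HET.

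Cells were then clustered without the genes of the rule. The selected cells were spread over 12 of 20 clusters that held at least 20 of them, and the 2 clusters with the most held 38.2%. Among the 13 clusters with at least 500 CHGA-low cells, between 1.20% and 41.1% of CHGA-low cells were selected. The highest share, 41.1%, was in a cluster led by LTB, ANKRD1 and EDN1. The lowest, 1.20%, was in a cluster led by CXCL14, COL3A1, GABRP and TFAP2A. The rule asked for TFAP2B at 0 and so limited the share of that cluster directly. The next lowest was 7.10%, in a cluster led by SHH, SULT1E1 and MYC. The clustering gave no cluster of selected cells alone, so the cells are called here by the rule that chose them and not as a cell type or a transitional state.

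The higher share in the edited libraries was present within most clusters. In 9 of the 11 clusters with at least 50 CHGA-low cells in every library, the share was higher in KO than in WT, and in 11 of 11 it was higher in HET than in WT. In the LTB and ANKRD1 cluster it was 43.3% in KO, 51.1% in HET and 22.4% in WT. With the 11 clusters weighted equally the mean share was 21.8% in KO, 25.02% in HET and 14.01% in WT. The exceptions between KO and WT were the clusters led by AOC1 and MMP1 (7.25% in KO, 7.49% in WT) and by ANGPT2 and GADD45B (10.6% in KO, 14.8% in WT).

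**Figure D3:**
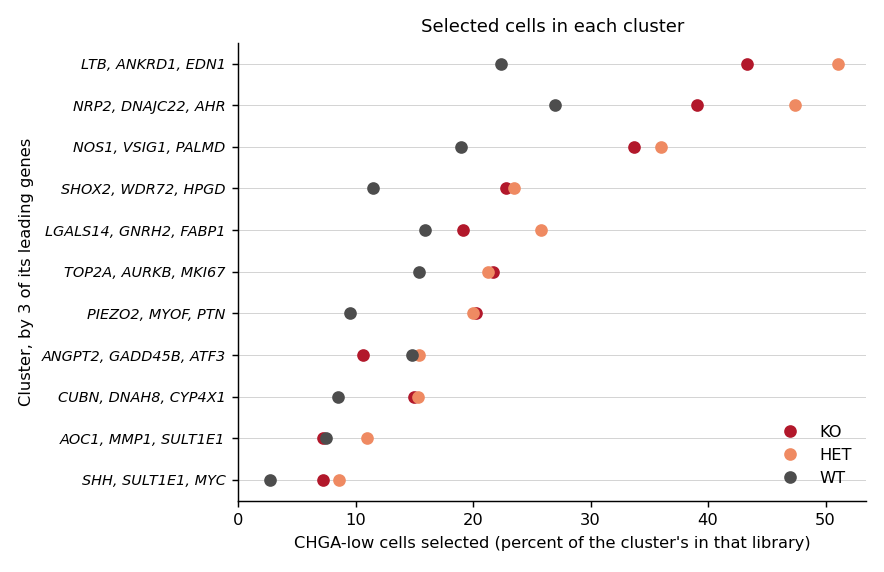
Percent of CHGA-low cells selected in each of the 11 clusters that had at least 50 such cells in every library (rows, named by 3 of their leading genes), in KO, HET and WT. HET lies right of WT in all 11 rows and KO right of WT in 9.

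Outside the genes of the rule the selected cells differed little from the other CHGA-low cells. Of 3052 genes with at least 50 CPM on either side in every library, 0 (0%) were at least 2-fold higher in selected cells in all 3 libraries and 3 (0.0983%) were at least 2-fold lower. In single libraries 1 of 3304 genes (0.0303%) was higher in KO, 3 of 3363 (0.0892%) in HET and 3 of 3447 (0.087%) in WT. The lower genes were 5 in KO (0.151%), 8 in HET (0.238%) and 11 in WT (0.319%). All CPM from here on carry TMM scaling, and no test stands behind these counts because the same cells gave the choice and the values.

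The 3 lower genes were APOA1, S100A14 and FABP1. APOA1, the main protein of high-density lipoprotein made by liver and gut, had 237 CPM in selected cells and 661 CPM in other CHGA-low cells in KO, 257 against 671 in HET and 476 against 1324 in WT. It was 2.78-fold lower in KO, 2.61-fold lower in HET and 2.78-fold lower in WT, and it was lower in every cluster compared (11 in KO, 11 in HET, 10 in WT). S100A14, an epithelial calcium-binding protein, had 344 against 774 CPM in KO, 128 against 317 in HET and 194 against 652 in WT. FABP1, the fatty acid carrier of liver and gut, had 105 against 224 CPM in KO, 97.8 against 248 in HET and 93.2 against 219.8 in WT. FABP1 was the least even, being higher in selected cells within 4 of 11 clusters in HET. With 3 of the 7 genes required, APOA1 alone was past 2-fold in all 3 libraries. Against CHGA-low cells with none of the 7 genes, none of these genes was, and the 2 genes lower there were CLDN4 and RBP4.

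At a looser limit of 10 CPM and any size, 495 of 8664 genes (5.71%) were higher in selected cells in all 3 libraries with every interval above 1, and 1008 (11.6%) were lower with every interval below 1. This wider count is the background for the lists that follow. The median log2 ratio over these 8664 genes was -0.01 in KO, 0.02 in HET and -0.07 in WT. The balance between the directions turned with the scaling, since under plain CPM 1154 of 8653 genes were higher and 595 lower, with all-gene medians of 0.05 in KO, 0.03 in HET and 0.05 in WT. All 495 higher genes and 592 of the 1008 lower genes were among them. Against CHGA-low cells with none of the 7 genes 840 were higher and 373 lower. List counts under plain CPM are given below for some of the lists that moved. The TGF-beta and BMP list, not described further, had 2 genes higher and 2 lower of 16 measured. Under plain CPM it had 9 higher and 1 lower of 15.

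Among genes with at least 50 CPM, the nearest to a 2-fold difference on the higher side in all 3 libraries was NEFM, the medium neurofilament chain that assembles with NEFL and lies beside it on chromosome 8. It had 396 CPM in selected cells and 154 CPM in other cells in KO, 882 against 428 in HET and 734 against 455 in WT, with log2 ratios of 1.36, 1.04 and 0.69. NEFM was higher within every cluster compared. At 10 CPM 1 gene was past 2-fold in all 3 libraries. This was PENK, the precursor of the enkephalin opioid peptides, with 16.7 CPM in selected cells and 7.08 CPM in other cells in KO, 10.2 against 4.33 in HET and 18.2 against 5.24 in WT. Of the general neuronal list 2 of 3 measured members were higher, 0 were lower, and 16 of 21 members stayed under 10 CPM in the selected cells of every library. UCHL1, a ubiquitin hydrolase abundant in neurons and endocrine cells, had log2 ratios of 0.13 in KO, 0.35 in HET and 0.27 in WT. INA, the other measured member, had 0.28, 0.78 and 0.20, and its WT interval included 1. STMN2 of the same list was under 10 CPM in HET and so not counted as measured. It went the other way, with log2 ratios of -0.08 in KO, -0.21 in HET and -1.08 in WT.

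Other genes that stood higher encode secreted and surface proteins. IGFBP5, a secreted binder of insulin-like growth factors, had 651 CPM in selected cells and 381 CPM in other cells in KO, 1050.1 against 689 in HET and 1486 against 985 in WT. SPP1, osteopontin, which marks ducts in the pancreas, had log2 ratios of 0.92 in KO, 0.73 in HET and 0.23 in WT. NRP2, a semaphorin and VEGF co-receptor, had 0.55, 0.87 and 0.54, and SSTR2, a somatostatin receptor, had 0.55, 0.60 and 0.61. FLT1, a VEGF receptor best known from endothelium, had 38.0 against 22.7 CPM in KO, 27.03 against 12.97 in HET and 35.0 against 20.3 in WT. Of 11 endothelial genes 9 stayed under 10 CPM in selected cells. EGFL7, the other measured endothelial gene, did not stand higher. Its log2 ratios were -0.26 in KO, -0.03 in HET and -0.30 in WT, and its HET interval included 1.

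Against the CHGA-low cells with none of the 7 genes (326 in KO, 263 in HET, 274 in WT), 14 genes were at least 2-fold higher in all 3 libraries, with NEFM, IGFBP5 and SPP1 among them. Those cells were shallower, with median depths of 12919 UMIs in KO, 10752 in HET and 11251.5 in WT.

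The level of these genes followed the number of the 7 genes detected at 5000 UMIs. NEFM had 46.6 CPM in KO cells with none of the 7, 106 with 1, 298 with 2, 404 with 3, 578 with 4 and 1075 with 5 to 7. APOA1 in KO had 681 CPM with none, 771 with 1, 456 with 2, 267 with 3, 171 with 4 and 96.9 with 5 to 7. The order was alike in HET and WT. The group with 5 to 7 genes was small, with 73 cells in KO, 132 in HET and 31 in WT.

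**Figure D4:**
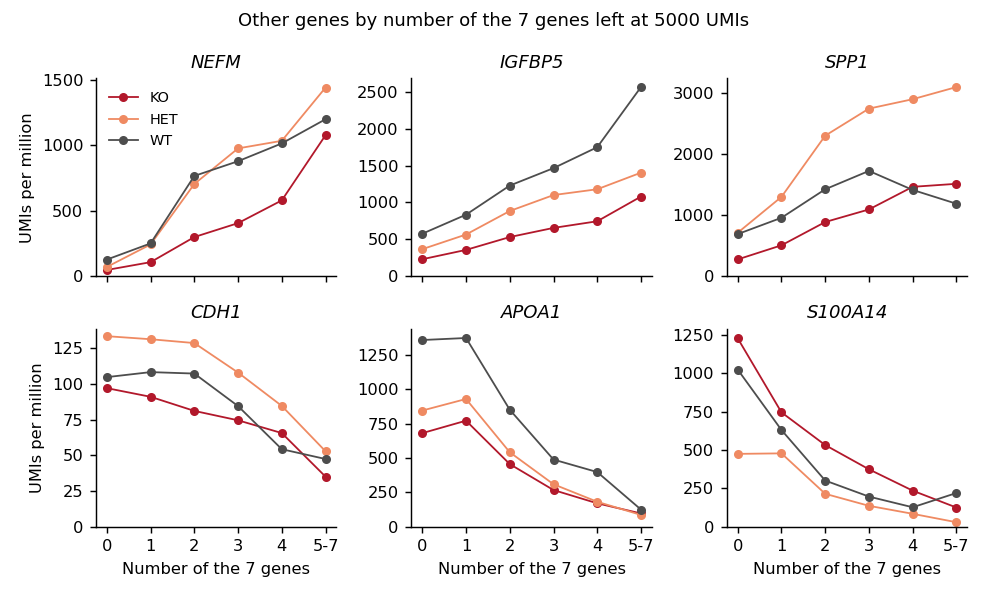
CPM of NEFM, IGFBP5, SPP1, CDH1, APOA1 and S100A14 (each axis from 0) in CHGA-low, TFAP2B-negative cells grouped by how many of the 7 genes remained after thinning to 5000 UMIs, for KO, HET and WT. NEFM and IGFBP5 stand higher and CDH1 and APOA1 lower in cells with more of the genes, while SPP1 in WT does not keep climbing.

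More epithelial genes stood lower than higher. Of 20 measured genes of the epithelial junction and keratin list, 11 were lower in all 3 libraries, 2 were higher and 7 were neither. The list's median log2 ratio was -0.28 in KO, -0.14 in HET and -0.44 in WT. Summed over the list, selected cells had 5041 CPM against 5426 in KO and 5267 against 6589 in WT. In HET the sum was slightly higher in selected cells, 6003 against 5908 CPM. CDH1, which encodes E-cadherin (chromosome 16, 68737225 to 68835548, plus strand), had 59.6 CPM in selected cells and 94.5 CPM in other cells in KO, 91.0 against 133 in HET and 61.4 against 122 in WT. CLDN4, a tight junction claudin, had 143 against 226 CPM in KO, 178 against 255 in HET and 193 against 336 in WT. ESRP1, a splicing factor of epithelia, had log2 ratios of -0.48, -0.51 and -0.71. The difference was one of degree, since EPCAM, an epithelial adhesion protein, still had 526, 635 and 652 CPM in the selected cells of KO, HET and WT, and the keratin KRT19 had log2 ratios of 0.08, 0.22 and 0.01.

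ZEB1 binds the sequence CACCTG, or CAGGTG on the other strand, and silences epithelial genes through it. RefSeq promoters (GRCh38.p14, 250 bases before to 50 after the start) were at hand for 5 of the 11 lower epithelial genes. Those of CLDN7 (chr17:7262429-7262728, minus strand), RAB25 (chr1:156060910-156061209, plus strand) and CLDN4 (chr7:73830746-73831045, plus strand) are shown because they span the range from most to no matches among these genes. Both forms of the motif are in capitals.
CLDN7: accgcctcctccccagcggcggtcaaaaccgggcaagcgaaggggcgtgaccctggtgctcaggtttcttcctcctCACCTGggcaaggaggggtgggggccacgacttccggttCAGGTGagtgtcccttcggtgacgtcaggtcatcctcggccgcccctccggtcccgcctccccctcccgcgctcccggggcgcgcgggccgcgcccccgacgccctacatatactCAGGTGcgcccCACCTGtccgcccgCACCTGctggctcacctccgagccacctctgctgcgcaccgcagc
RAB25: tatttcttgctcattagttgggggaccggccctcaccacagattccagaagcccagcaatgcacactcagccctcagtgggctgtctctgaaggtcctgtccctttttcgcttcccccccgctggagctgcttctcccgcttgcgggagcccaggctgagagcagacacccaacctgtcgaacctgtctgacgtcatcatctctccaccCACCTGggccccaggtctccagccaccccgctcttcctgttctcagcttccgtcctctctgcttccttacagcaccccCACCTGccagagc
CLDN4: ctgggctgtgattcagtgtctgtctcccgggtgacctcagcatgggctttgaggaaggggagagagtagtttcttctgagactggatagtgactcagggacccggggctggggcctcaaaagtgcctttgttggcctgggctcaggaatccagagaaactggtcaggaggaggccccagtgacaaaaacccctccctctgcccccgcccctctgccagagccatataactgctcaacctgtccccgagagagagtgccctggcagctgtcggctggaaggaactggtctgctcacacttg
CLDN7, a tight junction claudin, had 2 promoter entries. The entry shown was picked for its 5 matches, and the other held 0. CLDN7 had 413 CPM in selected cells against 531 in other cells in KO, 322 against 391 in HET and 349 against 563 in WT. RAB25, an epithelial vesicle GTPase, held 2 matches and had log2 ratios of -0.35, -0.26 and -0.58. CLDN4 held 0 matches and had the larger log2 ratios of -0.66, -0.52 and -0.80. The motif was in at least 1 promoter of 4 of the 5 lower genes, of 4 of 6 other measured epithelial genes with an entry, and of 24.1% of all genes in the table. The matches are a description of these letters and show no binding.

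The mesenchymal side was weak. Of 9 measured mesenchymal genes 4 were higher, 0 were lower and 5 were neither, and 12 of 23 stayed under 10 CPM. CDH2, N-cadherin, had log2 ratios of 0.26 in KO, 0.34 in HET and 0.13 in WT. VIM, vimentin, had 2286 CPM in selected cells against 1927 in KO, 2163 against 1521 in HET and 2163 against 1816 in WT. FN1, fibronectin, had pooled log2 ratios of 0.31 in KO, 0.43 in HET and -0.06 in WT. Within clusters it was higher in 11 of 11 in KO, 11 of 11 in HET and 9 of 10 in WT, with mean log2 ratios of 0.32, 0.18 and 0.12. Among transcription factors of the transition, SNAI1 and TCF4 alone passed 10 CPM besides ZEB1, 6 others did not, and neither SNAI1 nor TCF4 had intervals clear of 1 in all 3 libraries.

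The extracellular partners of FBN1 were uneven. Of 14 measured basement membrane genes 5 were higher (10 under plain CPM) and 0 lower, with list medians of 0.17 in KO, 0.24 in HET and 0.05 in WT. COL4A1, a chain of type IV collagen, had 81.9 against 63.6 CPM in KO, 88.5 against 53.4 in HET and 52.3 against 43.3 in WT. Of 6 measured microfibril genes 1 was higher and 1 lower. LTBP1, which holds latent TGF-beta on microfibrils, had log2 ratios of 0.61, 0.57 and 0.22, while FBLN1, fibulin, had -0.11, -0.17 and -0.21.

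The families of the other rule genes mostly did not follow. Of 10 measured cyclic AMP genes 2 were higher, 1 lower and 7 neither. AKAP12, a scaffold for protein kinase A, had log2 ratios of 0.52, 0.80 and 0.45, and the adenylyl cyclase ADCY8 had 14.3 against 8.15 CPM in KO, 19.8 against 11.5 in HET and 10.9 against 7.73 in WT. Of 6 measured neurotrophin genes 1 was higher, and BDNF, a ligand of NTRK2, had log2 ratios of 0.07 in KO, 0.22 in HET and -0.19 in WT. Of 5 measured cyclins and inhibitors 1 was higher: CDKN1A, the p21 inhibitor, had 176 against 133 CPM in KO, 139 against 95.8 in HET and 147 against 124 in WT. ATP2A2, the calcium pump that sarcolipin binds, had log2 ratios of 0.05, 0.08 and 0.06.

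More liver and gut genes stood lower than higher. Of 13 measured liver genes 8 were lower and 0 higher, with list medians of -0.28 in KO, -0.42 in HET and -0.71 in WT. Summed over the list, selected cells had 9241 CPM against 10766 in KO and 10263 against 12599 in WT. In HET the sums were close, 7435 against 7547 CPM. APOA2, another lipoprotein protein, had 431 against 921 CPM in KO, 244 against 463 in HET and 222 against 477 in WT, and SERPINA1, antitrypsin, had log2 ratios of -1.71, -1.29 and -1.52. Of 9 measured intestinal genes 5 were lower and 0 higher. Under plain CPM 1 liver gene and 1 intestinal gene were higher in all 3 libraries. CDX1, an intestinal transcription factor, had 15.6 against 24.3 CPM in KO, 14.1 against 23.5 in HET and 32.7 against 47.8 in WT, but its median log2 ratio against cells with none of the 7 genes was 0.12.

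Pancreatic and endocrine progenitor genes showed small differences. Of 11 measured pancreatic progenitor genes 3 were higher and 2 lower, but 7 were higher and 1 lower under plain CPM. ONECUT1, a factor of pancreatic progenitors, had log2 ratios of 0.44, 0.34 and 0.15, and SOX9, a progenitor and duct factor, had -0.47, -0.35 and -0.27. The SOX9 difference turned to a median of 0.095 against cells with none of the 7 genes. Of 6 measured endocrine progenitor genes 3 were higher and 0 lower. HES6, a transcription factor of the Hes family found in early endocrine cells, had 78.9 against 70.0 CPM in KO, 86.5 against 64.4 in HET and 116 against 99.7 in WT.

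Other lists were tilted to a side. Of 16 measured p53 and apoptosis genes 9 were higher and 0 lower; ZMAT3, a p53 target, had log2 ratios of 0.37 in KO, 0.48 in HET and 0.31 in WT. Of 12 measured interferon and HLA genes 8 were lower and 0 higher, and IFITM3, an interferon-induced antiviral membrane protein, had 83.5 against 126 CPM in KO, 83.6 against 128 in HET and 125 against 164 in WT. Of 15 measured cholesterol synthesis genes 9 were lower (6 under plain CPM) and 0 higher. All 13 mitochondrially encoded genes were lower (9 under plain CPM), with list medians of -0.12, -0.18 and -0.19, and the selected cells were the deeper ones with a median mitochondrial share of 5.25% in KO, 5.69% in HET and 4.51% in WT, against 5.46%, 6.45% and 4.76% in other cells. The part of depth in these tilts was not tested beyond the depth-limited values in the closing section.

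Markers of other cell types were read as lists. All 18 surface ectoderm genes stayed under 10 CPM in selected cells, with a summed level of 13.5 to 25.5 CPM, and the low levels of ectoderm and endocrine genes follow in part from the limits the rule set on TFAP2B and CHGA. Of 12 blood and immune genes 11 stayed under 10 CPM, LYZ being the exception, and of 21 HOX genes 20 did. Of 19 pan-endocrine genes 11 stayed under 10 CPM, and the summed list had 527 CPM in KO, 489 in HET and 676 in WT, against 523, 449 and 715 CPM in other CHGA-low cells.

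The libraries are labelled as beta cells, and the selected cells did not carry that mark. INS had 14.4 CPM in selected cells of KO, 38.7 in HET and 89.1 in WT, against 1944 CPM, 7696 CPM and 8362 CPM in endocrine cells. GCG, glucagon, had 3.16, 62.3 and 287 CPM in selected cells, against 859, 20009 and 34445 CPM in endocrine cells. Most WT selected cells (96.1%) had a GCG UMI, as did 95.6% of the other CHGA-low cells, each with a median of 3 UMIs. In other CHGA-low cells INS had 17.2 CPM in KO, 43.6 in HET and 98.3 in WT, and GCG had 3.89, 71.9 and 279.8 CPM. INS and GCG were thus far below their endocrine level on both sides of the rule. SST and GHRL were less even, with 4.93 CPM of GHRL, ghrelin, in WT selected cells against 9.77 in WT other cells, and SST is given with the genotypes. Whether hormone RNA was free RNA in the droplets was not tested. INS overlaps the INS-IGF2 readthrough gene, so its counts depend on how reads were assigned.

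PAX6 itself was scarce. It had 2.76 CPM in selected cells of KO, 2.40 in HET and 5.31 in WT, against 2.29, 2.02 and 6.66 CPM in other CHGA-low cells and 311, 263 and 329 CPM in endocrine cells. It was found in 4.04%, 3.49% and 5.15% of selected cells. The place of the lesion is not given in the sources used here, so this level does not check the labels.

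Between genotypes the selected cells of KO and WT were compared over 3478 genes with at least 50 CPM in either library. At least 2-fold apart were 16 genes higher in KO (0.46%) and 46 lower (1.32%). HET against WT gave 17 higher (0.491%) and 24 lower (0.693%) of 3461 genes. KO against HET gave 14 higher (0.416%) and 24 lower (0.714%) of 3362 genes. These comparisons share libraries, and each rests on 1 library per genotype.

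The genes higher in KO than in WT included PTN, FLNC, MYOF and NRP2. PTN, the growth factor pleiotrophin, had 60.4 CPM in KO and 18.1 CPM in WT (ratio 3.33, 2.97 to 3.76). FLNC, a filamin that cross-links actin, had 59.1 CPM in KO and 18.9 CPM in WT, and MYOF, a membrane repair protein, had 74.9 and 29.2 CPM. NRP2 had 421 CPM in KO and 169 CPM in WT. SLC2A3, a glucose transporter, had 106 CPM in KO, 133 CPM in HET and 42.7 CPM in WT, so it was high in both edited libraries.

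Among genes lower in KO than in WT, SST and GCG had the largest ratios, MMP1 came next and INS after it. SST, somatostatin, had 0.992 CPM in KO and 423 CPM in WT, but 1 WT cell held 7086 UMIs of it, 90.9% of all SST in WT selected cells. Without the cell that held the most in each library, SST had 0.868 CPM in KO and 38.6 CPM in WT, 44.5-fold lower in KO. GCG was 90.9-fold lower in KO with all cells and 69.4-fold lower without the top cell of each library. INS was 6.19-fold lower with all cells and 5.89-fold lower without.

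The non-hormone genes lower in KO were MMP1, FGF19, NTS, LYZ, PPP1R1A, PLCG2 and AKR1C3 among the 10 named. MMP1, a collagenase, had 20.8 CPM in KO and 170 CPM in WT (8.17-fold lower, 7.51 to 8.89). NTS, neurotensin, a gut peptide, had 231 CPM in KO, 704 CPM in HET and 860 CPM in WT. PLCG2, a phospholipase of immune signalling, had 143 CPM in KO, 133 CPM in HET and 483 CPM in WT, so it was lower in both edited libraries. LYZ, lysozyme, had 57.6 CPM in KO, 48.2 CPM in HET and 209 CPM in WT.

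In HET against WT the higher genes included PEG10, an imprinted gene derived from a retroelement, with 679 CPM in HET and 247 CPM in WT (ratio 2.75). DKK1, a secreted WNT inhibitor, had 112 CPM in HET and 43.6 CPM in WT. FOSB, an immediate early factor, had 82.4 CPM in HET and 30.4 CPM in WT. HPGD, which breaks down prostaglandins, had 129.9 CPM in HET and 56.5 CPM in WT in selected cells, but 121 CPM in HET and 124 CPM in WT in other CHGA-low cells. With 3 of the 7 genes required its log2 ratio was 0.61, under 2-fold.

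Most of these differences were also present outside the selection. Of the 16 genes higher in KO against WT, 14 (87.5%) were at least 2-fold higher in the other CHGA-low cells too, which had 16 such genes (0.45% of those tested there). Of the 46 lower genes 38 (82.6%) were shared, 55.1% of the 69 lower genes of the other cells (1.94%). For HET against WT 8 of 17 higher genes and 18 of 24 lower genes were shared with the other cells, which had 21 higher (0.59%) and 48 lower (1.35%). For KO against HET 12 of 14 and 15 of 24 were shared, of 15 higher (0.448%) and 29 lower (0.866%) in the other cells. No gene at least 2-fold apart in selected cells was at least 2-fold apart the other way in other CHGA-low cells, in any of the 3 comparisons. The same libraries stand on both sides, so this sharing is a description and not independent support.

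**Figure D5:**
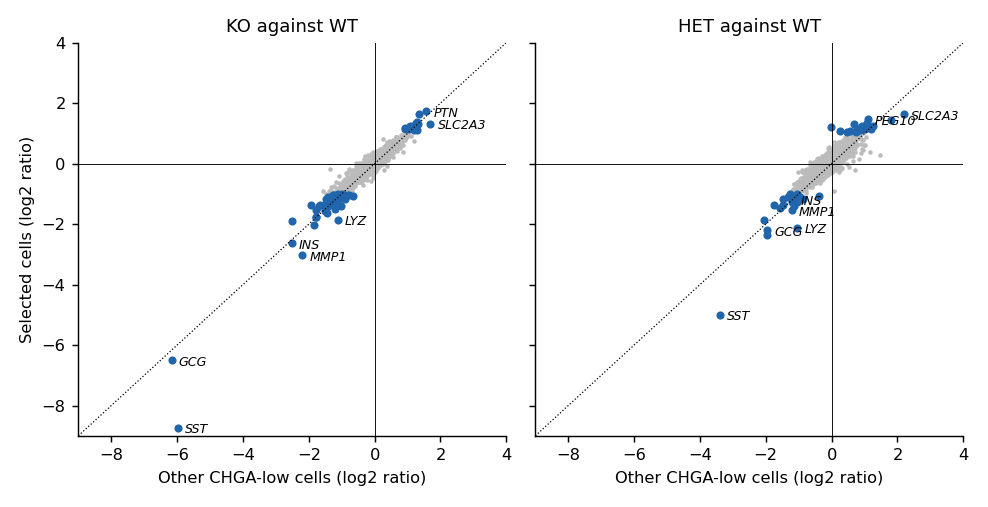
Log2 ratio of KO against WT (left panel) and HET against WT (right panel) for each gene tested, in selected cells (vertical axis) and in other CHGA-low cells (horizontal axis); blue points are at least 2-fold apart in selected cells and the dotted line marks equal ratios. Most blue points lie along the line; SST in the selected cells includes the WT cell with 7086 UMIs.

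By list, the hormones were the only list with 3 genes at least 2-fold apart in KO against WT. All 3 tested hormones were lower, and the median log2 ratio was -4.74 over 5 measured genes. GHRL, too low to be tested, went the other way in selected cells, with 19.9 CPM in KO, 12.4 in HET and 4.93 in WT. Without the top cell of each library GHRL had 16.9 CPM in KO and 3.52 CPM in WT. The epithelial list had 0 of 15 tested genes apart and a median of 0.01, and the mesenchymal list 0 of 5 and -0.46. The median over all 9252 genes measured was 0.01. The hypoxia and glycolysis list had 1 of 10 tested genes higher, SLC2A3, with a list median of 0.40 in KO against WT and 0.51 in HET against WT.

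The KO and HET libraries also differed from each other in these cells. CRYBA2, a crystallin gene expressed in endocrine cells, had 52.9 CPM in KO and 17.0 CPM in HET (ratio 3.10). S100A14 had 344 CPM in KO and 128 CPM in HET. DUOX2 and its maturation factor DUOXA2, which make hydrogen peroxide at epithelial surfaces, had 107 and 50.9 CPM in KO, against 45.2 and 21.2 CPM in HET. WNT5A, a secreted WNT ligand, had 53.5 CPM in KO and 23.5 CPM in HET, and with 5 of the 7 genes required its log2 ratio was 0.98, under 2-fold. Lower in KO were ONECUT3, a homeodomain factor, with 19.3 CPM in KO and 68.7 CPM in HET, and DKK1 with 34.6 CPM in KO and 112 CPM in HET.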

How the data were processed

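The 3 libraries were read, 1 per genotype, as gene by barcode matrices of UMI counts. The counts were deposited by the authors as whole numbers with no normalization; Cell Ranger 6.1.2 wrote them, per the file headers, and GRCh38 and Seurat are named in the submitters' processing notes. The sources used here do not give the annotation behind the counting or how barcodes were filtered. Of 33538 gene IDs 33484 were found in GENCODE 29, which gave the coordinates.

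Barcodes with 1000 to 40000 UMIs, at least 500 genes and at most 20% mitochondrial UMIs were kept. The cells, the 7 genes and the 47 gene lists were chosen with earlier results of these data known. Counts were summed per library over the selected and over the other CHGA-low cells and scaled with TMM factors (edgeR 4.0.16 in R 4.3.3; no edgeR test was run). A gene was tested for a 2-fold difference at 50 CPM or more on either side, and lists were read at 10 CPM or more. Ratios carry exact conditional binomial 95% intervals and shares exact Clopper-Pearson intervals (scipy 1.17.1). With 1 library per genotype no significance test was possible, and a called gene is one past 2-fold whose interval leaves out 1. Clustering used scanpy 1.11.5, leidenalg 0.10.2 and igraph 0.11.9 on 2000 variable genes without the genes of the rule, with 30 principal components, 20 neighbours and resolution 1. Scrublet scored doublets.

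Genes were named by rule: per comparison between genotypes the 10 largest and 10 smallest ratios among called genes, and per list at most 4 members with the largest median difference. Too few genes were called between selected and other cells to fill that rule. The 20 genes with the largest and the 20 with the smallest ratios were therefore added after their values were seen. PENK, EPCAM, KRT19, VIM, CLDN7 and RAB25 were also added then. The calling steps were checked on simulated data. The alternatives changed the number of genes required, the cell filter, doublets, depth, the cells compared with, the scaling, the CPM minimum and the clustering.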

Additional observations from a re-analysis of the deposited data

Results flagged for a closer look

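SST was higher in selected than in other CHGA-low cells in WT (log2 1.90) and lower in KO (log2 -0.85). The difference between the libraries was not tested, and 1 WT cell held 90.9% of the SST UMIs of the WT selected cells. Within clusters the mean log2 ratio of SST was -0.36 in WT (higher in 3 of 10 clusters) and 0.47 in KO (8 of 11).

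SPARC, a matricellular protein of mesenchyme, was higher in selected cells in WT (log2 0.55) and lower in HET (log2 -1.50), and this difference was not tested. Against other CHGA-low cells without TFAP2B the HET value was -0.37 and the WT value 0.55. Within clusters the opposite directions did not hold, since SPARC had a mean log2 ratio of 0.48 in WT (higher in 9 of 10 clusters) and 0.32 in HET (8 of 11). LYZ was higher in selected cells in WT (log2 0.44) and lower in HET (log2 -0.63), also not tested. Within clusters its mean log2 ratio was -0.09 in WT (higher in 4 of 10) and 0.0049 in HET (5 of 11).

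Barcodes that the rule left out carried the genes too. Of CHGA-low barcodes with a TFAP2B UMI, 5 of 133 in KO and 106 of 714 in HET had at least 4 of the 7 genes, and the WT library held 0 CHGA-low barcodes with TFAP2B.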

How the results depend on the processing

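No paired analysis was possible because each genotype was 1 library. Of 1760 repeats of gene values between selected and other cells, 1555 kept their class of higher, lower or neither in all 3 libraries. Higher and lower here meant every interval on 1 side of 1, and a gene that was neither could change sign and still count. Of 426 repeats between genotypes 421 stayed at least 2-fold apart the same way. The share of CHGA-low cells selected was 48.3% in KO, 50.4% in HET and 36.1% in WT with 3 genes required, and 7.82%, 10.4% and 4.77% with 5. It was 21.4% in KO and 13.6% in WT without the top doublet scores. In HET it was 27.7% with stricter cell filters, 28.0% with TFAP2B ignored and 25.02% with clusters weighted equally, an alternative chosen after seeing the data. Thinned to 3000 UMIs the shares were 1.99%, 3.87% and 1.24% in KO, HET and WT, to 8000 UMIs 10.3%, 15.6% and 6.11%, and not thinned 22.4%, 26.6% and 14.7%. Depth thus sets the size of the share.

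The median ratio over libraries with 3 of the other 6 genes required was 1.80 for NEFL, 1.44 for NTRK2 and 2.11 for ZEB1. With UMIs split in 2 sets, added after seeing the data, it was 4.13 for CCNA1, 6.93 for SLN, 2.18 for NEFL, 2.48 for ADCY2, 2.34 for FBN1 and 3.88 for ZEB1. Genes lower in selected cells numbered 1 with 3 genes required, 6 without top doublet scores, 6 in depth-limited cells, 9 at 10 CPM and 5 against other cells without TFAP2B, the last added after seeing the data. Genes higher numbered 14 against cells with none of the 7 genes and 1 at 10 CPM. Against cells with none of the 7, the median log2 turned to 0.095 for SOX9, 0.12 for CDX1, 0.21 for MESP1, 0.075 for ACVR2A, -0.00251 for HK1, 0.38 for PDIA5 and 0.15 for TDO2, and in depth-limited cells to 0.053 for GHRL. The cause was not tested.

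Under plain CPM the list medians were 0.16 for microfibrils, 0.14 for neurotrophins, 0.10 for WNT, 0.093 for hedgehog, -0.043 for FGF and EGF, -0.054 for immediate early genes, 0.016 for IRE1 and XBP1 targets, -0.18 for interferon and HLA and -0.075 for mitochondrially encoded genes. In depth-limited cells they were -0.65 for intestine, -0.67 for liver, -0.057 for FGF and EGF, -0.14 for immediate early genes, -0.37 for interferon and HLA and 0.046 for axon guidance.

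At 10 CPM 56 genes were higher and 152 lower in KO against WT, 47 and 91 in HET against WT, and 37 and 54 in KO against HET. At 100 CPM these were 9 and 19, 11 and 9, and 7 and 14. With 3 genes required 10 were higher in HET against WT, and with 5 required 9 were higher in KO against HET. The highest share in a cluster was 33.4% at resolution 0.5 and 54.4% at resolution 2, and 2 clusters held 54.1% and 28.1% of the selected cells.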

Other observations

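The 7 genes also occurred together above the CHGA limit. At least 4 of them were found in 104 of 1279 such kept cells in KO (8.13%), 85 of 748 in HET (11.4%) and 158 of 1888 in WT (8.37%). Their median depths were 12514, 12578 and 12876.5 UMIs.

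Of 14 measured cell cycle genes 4 were lower in selected than in other CHGA-low cells in all 3 libraries and 0 were higher, with list medians of log2 -0.28 in KO, -0.81 in HET and -0.03 in WT. Under plain CPM 1 of 12 was lower in all 3. The pooled direction did not hold within clusters for AURKB, a mitotic kinase, or CCNB2, a mitotic cyclin. AURKB had pooled log2 ratios of -0.40 in KO, -0.91 in HET and -0.20 in WT, but within clusters mean log2 ratios of 0.85, 0.80 and 0.53, and it was higher in 8 of 11, 11 of 11 and 8 of 10 clusters. CCNB2 had pooled log2 ratios of -0.36, -1.15 and -0.10, and within clusters 0.35, 0.32 and 0.35.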
